A study of Mus musculus with 23 samples.

Results

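Interferon-stimulated genes are described here in microglia (MG) and in the macrophages of the perivascular and leptomeningeal spaces, together called subdural CNS-associated macrophages (sdCAMs), of mice, sorted from the brain 1 day after an experimental stroke. The genes were chosen by name, from a list of 45 symbols of genes that interferon induces. Of these, 44 had a row in the count table of 33280 genes, and all 44 passed the filter on low counts in every comparison. The remaining symbol, Ddx58, had no row under that name; a row named Rigi, the current symbol of the same RNA sensor, was kept apart from the 44.

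All animals were mice of the genotype Ccr2creERT2/+ R26tdT/tdT, in which tamoxifen makes cells that express Ccr2, and all their descendants, red through the reporter tdTomato (tdT). Cre acts only in cells that express Ccr2, the receptor of circulating monocytes, around the days of injection, so a cell that arose from monocytes at another time carries no mark. BLZ945 blocks the CSF-1 receptor, on which brain macrophages depend for survival. It was given by gavage at 200 mg/kg on 7 days, and control animals (CTL) received the vehicle. Tamoxifen at 2 mg per day and, 8 weeks after the gavage, thrombin injected into the middle cerebral artery were shared by all groups, so none of the values below separates stroke from its absence. MG were sorted as CD45int CD11b+ CD206- cells and sdCAMs as cells with intermediate to high CD206, the latter with a separate gate for tdT+ cells. By the study's methods, cells with Ly6C, Ly6G or CD11c on their surface were gated out of both, a gate against monocytes, neutrophils and dendritic cells. MG of CTL and of BLZ945 animals gave 5 libraries each, as did tdT- sdCAMs of either treatment, and tdT+ sdCAMs, sequenced from BLZ945 animals, gave 3. Replicates carry the labels F1, F2, F3, M1 and M2, and tdT+ cells were sequenced for F2, F3 and M2. Within a treatment the same label is the same animal or pool. Each CTL library came from 1 animal, whereas the names of the BLZ945 libraries hold 2 animal numbers each, except F2, whose name holds 1. The study's methods describe all BLZ945 replicates as pools, so whether F2 was a pool is not settled, and pooling and treatment cannot be told apart. The names of the BLZ945 libraries F2 and M1 share 1 animal number, and these libraries may therefore not be independent.

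Type I interferons bind the receptor pair IFNAR1 and IFNAR2, whose kinases activate a complex that contains STAT2 and IRF9. The complex binds the interferon-stimulated response element (ISRE) in the promoters of its targets, while interferon gamma acts on another element, the gamma-activated site (GAS). The targets include the sensors and transcription factors of the pathway itself as well as proteins that block viral entry, translation or replication, and in microglia and border macrophages a basal level of them is maintained without infection.

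Promoter sequence was available for 33 of the 44 genes in the RefSeq table of build GRCm38.p6 (250 bases before to 50 bases after the start of the gene). The ISRE core, GAAA followed by any 2 bases and GAAA again, searched on both strands, lay in 19 of the 33 (57.6%), against 3.99% of the 27025 genes in the table. GAS, searched as TTCNNNGAA on both strands, lay in 8 of the 33 (24.2%), against 9.55% of all genes. Each is a match of letters and was not measured as a bound site. The stretches below were chosen from members of several roles that are named further on. They show every ISRE core upstream of the start, with 15 bases on either side where the promoter allows. Each reads 5′ to 3′ on the strand of the gene, with the cores in capitals. Adjacent cores can share letters, as the 3 in Isg15 do, and a core on the other strand reads as TTTC, any 2 bases and TTTC.
Isg15: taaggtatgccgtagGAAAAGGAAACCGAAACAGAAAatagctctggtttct
Ifit1: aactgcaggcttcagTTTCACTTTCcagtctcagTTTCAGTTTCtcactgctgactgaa
Ifit3: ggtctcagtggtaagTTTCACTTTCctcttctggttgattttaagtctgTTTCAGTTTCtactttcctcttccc
Ifit3b: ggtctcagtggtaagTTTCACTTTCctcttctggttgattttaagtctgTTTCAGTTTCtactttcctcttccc
Ddx60: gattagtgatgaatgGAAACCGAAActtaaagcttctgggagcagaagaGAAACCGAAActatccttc
Oas1a: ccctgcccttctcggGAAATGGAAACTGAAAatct
Bst2: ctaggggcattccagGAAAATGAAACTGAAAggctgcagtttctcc
Igtp: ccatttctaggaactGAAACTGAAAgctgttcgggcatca

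In GRCm38.p6 these stretches lie at chr4:156200860-156200911 (minus strand), chr19:34640770-34640828 (plus strand), chr19:34583358-34583431 (plus strand), chr19:34607754-34607827 (plus strand), chr8:61928019-61928086 (plus strand), chr5:120907526-120907560 (minus strand), chr8:71537572-71537617 (minus strand) and chr11:58199507-58199546 (plus strand), in the order shown. All are upstream of the annotated start of their gene. The stretches of Ifit3 and Ifit3b are identical over 74 bases. Ifit3 and Ifit3b are near copies, as are members of the Oas, Oasl, Ifi200 (Ifi204, Ifi207), Gbp and Trim30 families, and counts that a read shared between copies could shift are uncertain for these genes.

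The 23 libraries held 9433960 to 13276081 counts, at which 3 counts, taken as the lowest level told from 0, equal 0.226 to 0.318 CPM, the counts scaled to library size and TMM factor as edgeR does. The sorted cells carried the markers of their labels. The summed level of 5 MG markers (such as P2ry12 and Tmem119) was 6661 to 11798 CPM in MG and 487 to 1070 CPM in sdCAMs, and that of 7 sdCAM markers (such as Mrc1 and Lyve1) was 12.7 to 52.2 CPM in MG and 13059 to 18870 CPM in sdCAMs. Of 5 monocyte markers, the summed level was 3.72 to 15.8 CPM in MG and 5.87 to 231 CPM in sdCAMs, with the highest values in tdT- BLZ945 F1 (231 CPM) and M1 (99.6 CPM). The dendritic cell list (5 genes) reached 219 to 780 CPM in tdT- CTL through Cd209a and 31.4 to 164 CPM in the BLZ945 sdCAMs. Transcripts of T and NK cells (5 genes) summed to at most 7.93 CPM in any library. The neutrophil list (5 genes) summed to 152 to 245 CPM in MG and 36.6 to 126 CPM in sdCAMs, chiefly through Csf3r, and its member Ly6g was at 0 in 22 of 23 libraries. The list of plasmacytoid dendritic cells (5 genes) summed to 6.29 to 22.98 CPM in MG, 18.96 to 81.0 CPM in tdT- CTL, 0 to 17.7 CPM in tdT- BLZ945 and 4.41 to 10.6 CPM in tdT+ BLZ945. The fibroblast list (3 genes) summed to at most 2.13 CPM in MG and 15.1 to 47.9 CPM in sdCAMs, the neuron list (3 genes) to 4.19 to 12.0 and 36.01 to 108 CPM, the oligodendrocyte list (3 genes) to 21.8 to 67.9 and 49.1 to 245 CPM, and the astrocyte list (3 genes) to 139 to 294 and 9.13 to 132 CPM.

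The mean level of the set was lowest in MG CTL, intermediate in MG BLZ945 and highest in the 3 groups of sdCAMs. The mean of log2(CPM + 1) over the 44 genes (± SD over libraries) was 4.60 ± 0.32 in MG of CTL animals (MG CTL) and 5.26 ± 0.43 in MG of BLZ945 animals. In sdCAMs it was 6.21 ± 0.45 for tdT- CTL, 5.89 ± 0.20 for tdT- BLZ945 and 5.80 ± 0.21 for tdT+ BLZ945. In MG CTL, the libraries F1, F2, F3, M1 and M2 stood at 4.34, 4.72, 4.99, 4.75 and 4.19. The same labels stood at 5.39, 4.61, 5.19, 5.81 and 5.30 in MG BLZ945. Every MG CTL library was thus below every sdCAM library, while MG BLZ945 reached from the CTL range (F2) into the sdCAM range (M1). In tdT- sdCAMs the values were 6.66, 6.08, 5.87, 6.71 and 5.73 in CTL and 6.07, 5.82, 6.12, 5.65 and 5.78 in BLZ945. In tdT+ sdCAMs, F2, F3 and M2 stood at 5.59, 5.80 and 6.02. In order of level, tdT+ BLZ945, tdT- BLZ945 and tdT- CTL were neighbours whose ranges overlapped, and MG BLZ945 overlapped with each of its neighbours. In bulk libraries, a lower share of cells that express a gene and less RNA per cell cannot be told apart.

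**Figure D1:**
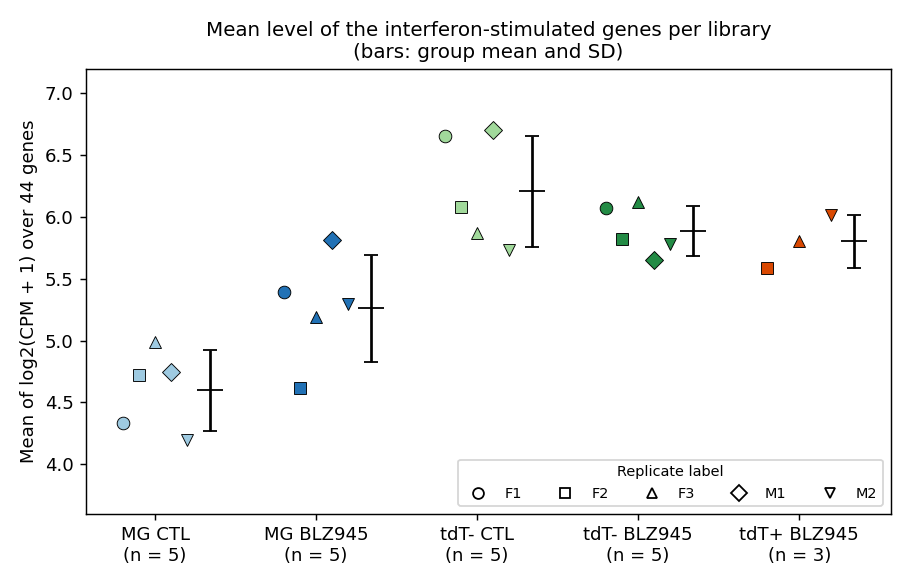
Mean of log2(CPM + 1) over the 44 interferon-stimulated genes (y axis) in each of 23 libraries (points, marker shape by replicate label), by group on the x axis, with the group mean and SD as bars. All 5 MG CTL libraries lie below 5, all 13 sdCAM libraries above 5.5, and MG BLZ945 spans 4.61 to 5.81.

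MG BLZ945 F2, whose name holds 1 animal number, lay at 4.61 within the CTL range of 4.19 to 4.99, and the other 4 libraries (5.19 to 5.81) lay above it. In tdT- sdCAMs, F2 (5.82) lay between the other libraries (5.65 to 6.12). The order of animals in MG was not the order in sdCAMs. Animal F1 of the CTL group was second lowest in MG (4.34) and second highest in tdT- sdCAMs (6.66), and pool M1 of the BLZ945 group was highest in MG (5.81) and lowest in tdT- sdCAMs (5.65), the single animal or pool in which MG exceeded tdT- sdCAMs. Of the 3 BLZ945 samples with both sdCAM populations, tdT+ cells were lower than tdT- cells in F2 (5.59 and 5.82) and F3 (5.80 and 6.12) and higher in M2 (6.02 and 5.78).

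**Figure D2:**
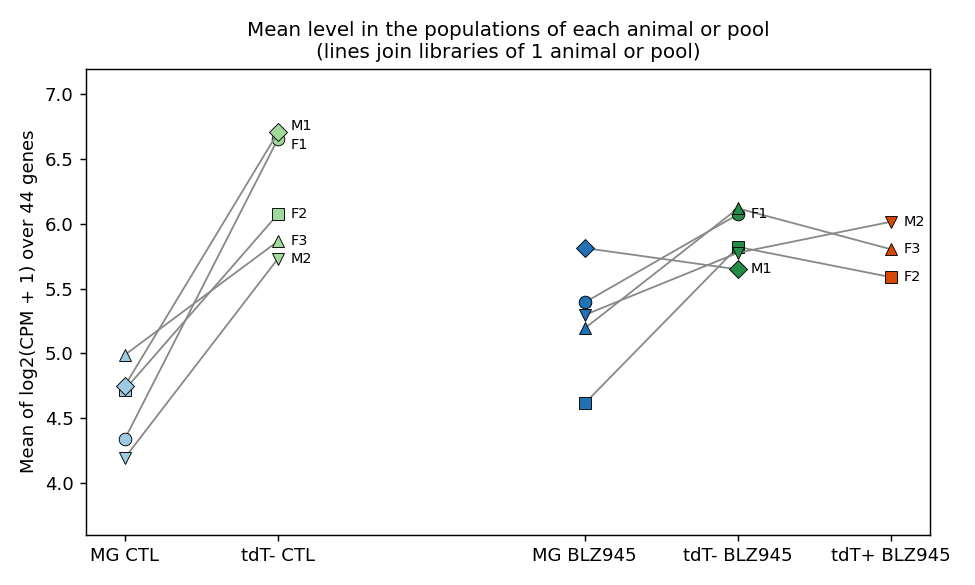
Mean of log2(CPM + 1) over the 44 genes (y axis) in each cell population (x axis), with lines joining libraries of the same animal or pool. All 5 CTL animals rise from MG to tdT- sdCAMs; of the BLZ945 samples, 4 rise and M1 falls from 5.81 to 5.65.

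By role, the OAS family had the lowest mean level in MG CTL (2.66 ± 0.37) and 5.52 ± 0.59 in tdT- CTL. The GTPases stood at 4.36 ± 0.51 and 6.16 ± 0.45 in the same groups, and the nucleic acid sensors at 4.66 ± 0.31 and 6.29 ± 0.28. The transcription regulators stood at 5.49 ± 0.21 and 6.78 ± 0.35, and the ISG15 system, the role with the smallest distance, at 4.80 ± 0.36 and 5.70 ± 0.41. The IFIT proteins were the role in which tdT+ sdCAMs stood no higher than MG CTL, with 4.67 ± 0.57 in tdT+ BLZ945, 5.44 ± 0.30 in tdT- BLZ945, 5.54 ± 0.76 in MG BLZ945 and 4.71 ± 0.41 in MG CTL. These means weigh each gene of a role equally on the log2(CPM + 1) scale and carry no test.

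**Figure D3:**
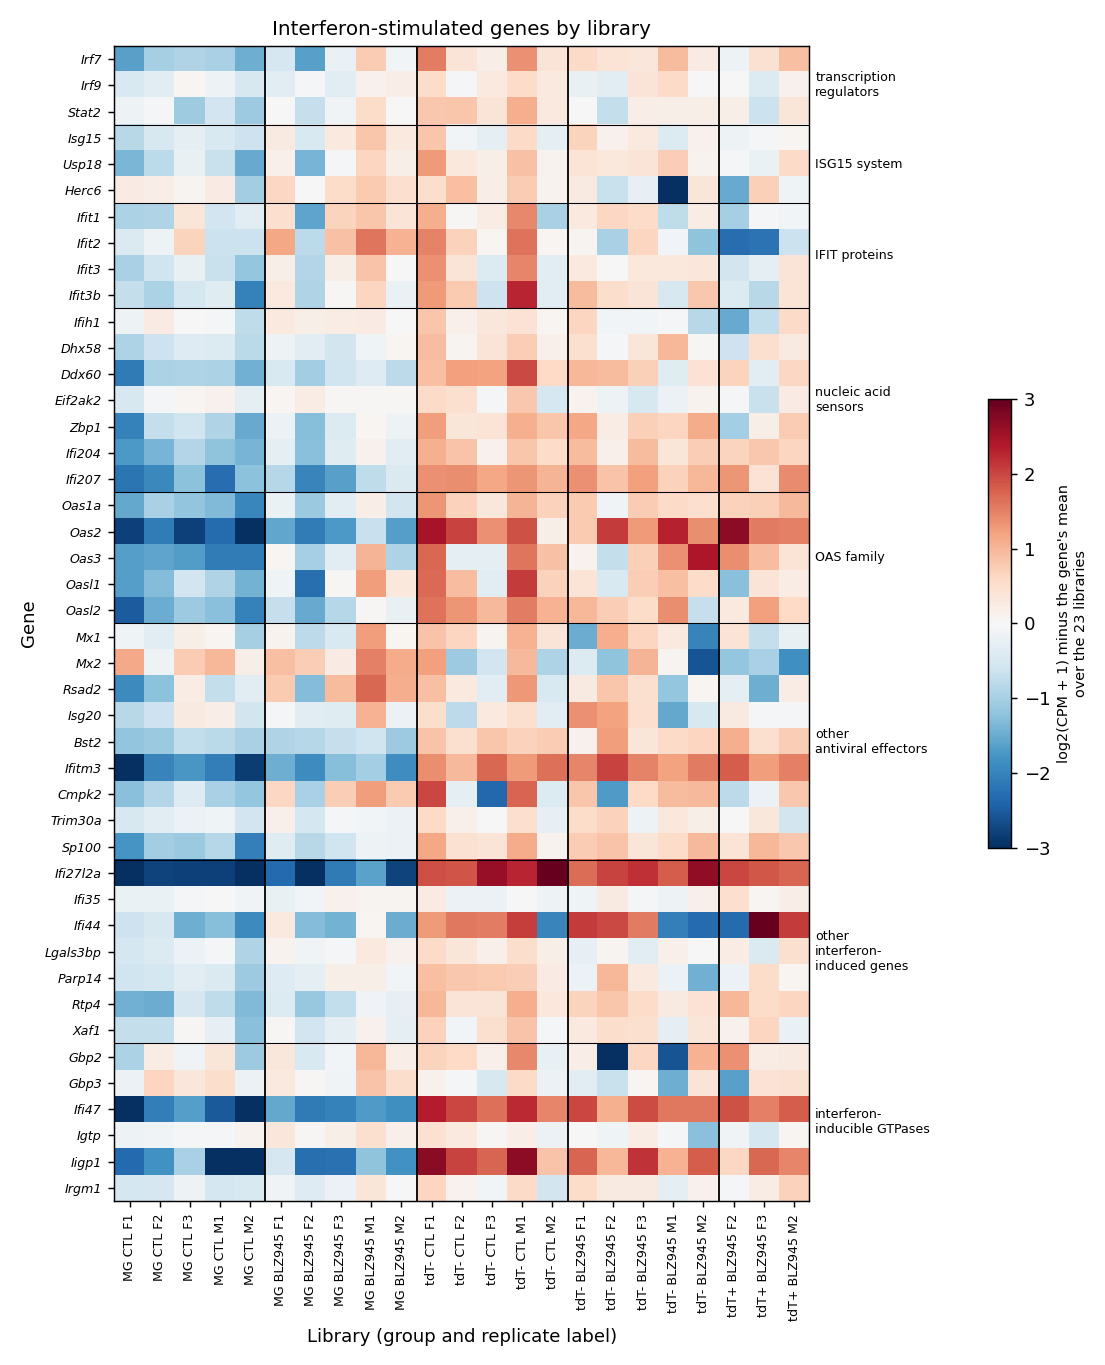
Level of each gene (rows, grouped by role) in each library (columns, groups separated by lines), coloured by log2(CPM + 1) minus the mean of that gene over the 23 libraries. Ifi27l2a, Ifi47, Iigp1, Oas2 and Ifitm3 separate MG from sdCAMs in every library, whereas Ifi35 varies little; colours end at 3 and -3.

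The first comparison set tdT- sdCAMs against MG in CTL animals and asks how the program differs between the undisturbed populations after stroke. Of the 44 genes, 31 were higher in tdT- sdCAMs and none was lower, with edgeR's quasi-likelihood test at a Benjamini-Hochberg adjusted p below 0.05. Of all 12697 genes tested, 15.3% were called higher, 10.3% lower and 25.6% in either direction. The median log2 fold change of the 44 was 1.38 (all genes, -0.01), 42 of them had a value above 0 (49.6% of all genes), and 36 had an unadjusted p below 0.05 (35% of all genes). In 22 of the 44, every tdT- CTL library was above every MG CTL library (14.7% of all genes). The dendritic cell list summed to 14.2 to 23.5 CPM in these MG and, through Cd209a, to 219 to 780 CPM in these sdCAMs. The neutrophil list, chiefly Csf3r, summed to 152 to 223 CPM in these MG and 44.8 to 67.9 CPM in these sdCAMs. CD11c+ and Ly6G+ cells had been gated out of the sort. The fibroblast, neuron and astrocyte lists were also without overlap between these groups. The part of these lists in the result was not tested.

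All 3 transcription regulators rose. Irf7, the factor that amplifies interferon production, measured 23.9, 37.5, 40.4, 37.8 and 26.8 CPM in MG CTL (F1, F2, F3, M1 and M2) and 223, 99.7, 87.6, 199 and 98.9 CPM in tdT- CTL (log2 fold change 2.10 ± 0.34, adjusted p = 6.45e-05). The groups did not overlap, and F1 and M1 were the highest of the tdT- libraries. Stat2, a subunit of the complex that binds the ISRE, measured 34.7, 37.1, 17.8, 25.4 and 17.5 CPM in MG and 67.9, 69.5, 50.9, 82.2 and 47.6 CPM in tdT- sdCAMs (log2 fold change 1.27 ± 0.26, adjusted p = 0.000852), again without overlap. Irf9, which gives that complex its DNA contact, rose from 104 ± 16.6 to 159 ± 26.0 CPM (log2 fold change 0.62 ± 0.18, adjusted p = 0.0112).

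The ubiquitin-like modifier Isg15 was a weaker case. It measured 21.9, 27.9, 32.8, 28.5 and 25.4 CPM in MG and 71.8, 37.1, 32.3, 59.1 and 32.6 CPM in tdT- sdCAMs (log2 fold change 0.78 ± 0.26, adjusted p = 0.0292). Only tdT- F1 and M1 were well above the MG range, and with the animal as a block the adjusted p was 0.0934. Usp18, the protease that removes ISG15 and dampens the receptor, rose from 43.9 ± 16.4 to 122 ± 45.8 CPM (log2 fold change 1.49 ± 0.31, adjusted p = 0.000914). Herc6, the ligase that attaches ISG15 in mice, did not pass (log2 fold change 0.54 ± 0.49, adjusted p = 0.485).

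The IFIT proteins bind foreign RNA and block its translation. Of the 4 genes, Ifit3 and Ifit3b rose and Ifit1 and Ifit2 did not pass. Ifit3 measured 35.2, 46.4, 59.8, 44.2 and 30.8 CPM in MG and 184, 92.4, 52.7, 197 and 56.3 CPM in tdT- sdCAMs (log2 fold change 1.43 ± 0.34, adjusted p = 0.0026). F1, F2 and M1 were above all MG libraries, and F3 and M2 were within the MG range. Ifit2 had a log2 fold change of 1.12 ± 0.42 (adjusted p = 0.0553) and Ifit1 of 1.02 ± 0.43 (adjusted p = 0.0861).

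Of 7 nucleic acid sensors, 5 rose. Ddx60, an antiviral helicase, measured 6.70, 16.3, 16.7, 16.1 and 11.3 CPM in MG and 61.4, 77.0, 75.6, 131 and 49.6 CPM in tdT- sdCAMs (log2 fold change 2.56 ± 0.30, adjusted p = 1.05e-06). Ifi207 (log2 fold change 3.002 ± 0.27, adjusted p = 1.87e-08) and Ifi204 (log2 fold change 2.04 ± 0.23, adjusted p = 6.16e-07), DNA-binding proteins of the HIN-200 family, were also higher in every tdT- library than in any MG library. Zbp1, a sensor of Z-form nucleic acid that can trigger necroptosis, rose from 17.2 ± 6.70 to 66.5 ± 18.1 CPM (log2 fold change 1.96 ± 0.30, adjusted p = 2.76e-05). Dhx58, which encodes the RIG-I-like receptor LGP2, measured 16.5, 20.6, 24.5, 24.2 and 18.1 CPM in MG and 62.2, 34.1, 42.5, 54.5 and 35.8 CPM in tdT- sdCAMs (log2 fold change 1.15 ± 0.23, adjusted p = 0.000501). Ifih1, which encodes the RNA sensor MDA5, measured 21.6, 28.6, 24.5, 23.2 and 13.9 CPM in MG and 43.5, 27.0, 30.7, 33.2 and 25.4 CPM in tdT- sdCAMs and did not pass (log2 fold change 0.52 ± 0.25, adjusted p = 0.136), nor did Eif2ak2, which encodes the kinase PKR (log2 fold change 0.47 ± 0.22, adjusted p = 0.138).

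All 5 OAS genes rose, each without overlap. The enzymes encoded by Oas1a, Oas2 and Oas3 make the oligoadenylates that activate RNase L. Oas2 measured 1.10, 2.45, 1.11, 1.96 and 0 CPM in MG and 81.1, 59.4, 37.3, 54.8 and 15.7 CPM in tdT- sdCAMs (log2 fold change 5.23 ± 0.63, adjusted p = 1.14e-06). Oas3 was close to the detection limit in MG, with 0 to 5 counts per library (0.367, 0.438, 0.342, 0 and 0 CPM), against 13.2, 2.55, 2.57, 12.02 and 6.88 CPM in tdT- sdCAMs (log2 fold change 4.98 ± 0.96, adjusted p = 0.000425); a fold change from so few counts depends on the prior count of the model. Oas1a measured 16.3, 24.9, 21.3, 19.1 and 12.03 CPM in MG and 125, 81.1, 62.6, 101 and 80.2 CPM in tdT- sdCAMs (log2 fold change 2.27 ± 0.26, adjusted p = 4.82e-07). Oasl2 (2.98) and Oasl1 (2.48) had log2 fold changes of similar direction.

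Of 9 other antiviral effectors, 5 rose. Ifitm3, which blocks viral fusion, measured 37.7, 87.5, 104, 82.6 and 48.3 CPM in MG and 922, 692, 1166, 861 and 1104 CPM in tdT- sdCAMs (log2 fold change 3.73 ± 0.26, adjusted p = 4.01e-10). Bst2, the tetherin that holds budding virus, measured 184, 192, 251, 236 and 212 CPM in MG and 760.2, 582, 748, 677 and 711 CPM in tdT- sdCAMs (log2 fold change 1.70 ± 0.17, adjusted p = 5.81e-08). Sp100, a nuclear body protein, also rose (log2 fold change 2.03 ± 0.24, adjusted p = 1.02e-06). Trim30a (log2 fold change 0.57 ± 0.18, adjusted p = 0.0212) and the mitochondrial nucleotide kinase Cmpk2 (log2 fold change 1.89 ± 0.64, adjusted p = 0.0329) passed narrowly, the latter not with the animal as a block (adjusted p = 0.222). The dynamin-like GTPases Mx1 (log2 fold change 0.88 ± 0.50, adjusted p = 0.23) and Mx2 (log2 fold change -0.45 ± 0.75, adjusted p = 0.74), Rsad2, which encodes viperin (log2 fold change 1.15 ± 0.47, adjusted p = 0.083), and the exonuclease Isg20 (log2 fold change 0.39 ± 0.49, adjusted p = 0.639) did not pass.

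Among 7 further interferon-induced genes, 6 rose. Ifi27l2a had the highest fold change of the 44 genes. Its level was 16.7, 32.7, 32.4, 32.3 and 14.9 CPM in MG and 887, 852, 1421, 1119 and 2042 CPM in tdT- sdCAMs (log2 fold change 5.62 ± 0.36, adjusted p = 5.77e-11). No MG library exceeded 32.7 CPM and no tdT- library was below 852 CPM. Parp14, an ADP-ribosyltransferase, measured 21.6, 22.8, 26.3, 24.3 and 15.01 CPM in MG and 62.8, 59.1, 58.4, 56.1 and 39.6 CPM in tdT- sdCAMs (log2 fold change 1.33 ± 0.30, adjusted p = 0.00208). Lgals3bp, a secreted glycoprotein, measured 256, 276, 327, 352 and 196 CPM in MG and 542, 470.0, 406, 528 and 411 CPM in tdT- sdCAMs (log2 fold change 0.75 ± 0.15, adjusted p = 0.000447). Both were without overlap, although tdT- M2 was the lowest of its group in Parp14. Rtp4 (log2 fold change 1.74 ± 0.23, adjusted p = 3.53e-06) and Xaf1 (log2 fold change 0.97 ± 0.24, adjusted p = 0.00428), a factor of cell death, rose as well. Ifi44 passed at the threshold (log2 fold change 3.08 ± 1.13, adjusted p = 0.0497) and not with the animal as a block (adjusted p = 0.128). Ifi35 was alike in both groups, at 84.2 ± 5.26 and 88.1 ± 11.7 CPM (log2 fold change 0.07 ± 0.12, adjusted p = 0.731).

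The GTPases that respond chiefly to interferon gamma were divided. Of 6 genes, Ifi47, Iigp1 and Irgm1 rose. Ifi47 measured 1.29, 7.62, 10.6, 5.29 and 1.84 CPM in MG and 184, 144, 114, 171 and 99.2 CPM in tdT- sdCAMs (log2 fold change 4.75 ± 0.41, adjusted p = 9.23e-09). Iigp1 measured 3.86, 5.95, 11.5, 0.769 and 0 CPM in MG and 158, 99.1, 81.1, 157 and 43.7 CPM in tdT- sdCAMs (log2 fold change 4.61 ± 0.71, adjusted p = 3.39e-05). Irgm1 rose less (log2 fold change 0.65 ± 0.20, adjusted p = 0.0189, with the animal as a block 0.0707). Igtp (log2 fold change 0.24 ± 0.19, adjusted p = 0.417), Gbp2 (log2 fold change 0.89 ± 0.66, adjusted p = 0.376) and Gbp3 (log2 fold change -0.23 ± 0.30, adjusted p = 0.65) did not pass.

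The same contrast was made in BLZ945 animals, where the question is whether repopulated sdCAMs and MG differ in the same way. Here 16 of the 44 genes were higher in tdT- sdCAMs and 1, Ifit2, was lower, while 18.3% of the 12697 genes were called higher, 14.1% lower and 32.4% in either direction. The median log2 fold change was 0.42 (all genes, -0.02), and 30 of the 44 values were above 0 (49% of all genes). For 20 the unadjusted p was below 0.05 (41.7% of all genes), and in 12 every tdT- library was above every MG library (10.4% of all genes). As in CTL animals, the lists of dendritic cells (14.9 to 23.4 CPM in MG, 31.4 to 164 CPM in tdT- sdCAMs), neutrophils (178 to 245 and 43.9 to 126 CPM), fibroblasts, neurons and astrocytes were without overlap between the populations, and their part in the result was not tested. All 16 had also been called higher in CTL animals, and the other 15 genes called there were not called here. Whether the contrast itself differed between treatments was tested separately and is given further on.

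Ifi27l2a, Ifi47, Oas2, Iigp1 and Ifitm3 had the highest fold changes, as they did among the 16 shared genes in CTL animals. Ifi27l2a measured 44.96, 26.8, 52.4, 74.8 and 32.8 CPM in MG BLZ945 and 739.9, 937, 1060.1, 819 and 1463 CPM in tdT- BLZ945 (log2 fold change 4.45 ± 0.34, adjusted p = 1.09e-09). Ifi47 measured 11.4, 7.38, 7.85, 10.1 and 9.13 CPM in MG and 144, 75.1, 139, 108 and 108 CPM in tdT- sdCAMs (log2 fold change 3.66 ± 0.39, adjusted p = 2.09e-07), with no MG library above 11.4 CPM. Oas2 measured 4.01, 2.43, 3.50, 8.24 and 3.72 CPM in MG and 24.2, 62.1, 34.7, 72.5 and 37.9 CPM in tdT- sdCAMs (log2 fold change 3.41 ± 0.56, adjusted p = 7.21e-05). Iigp1 measured 16.3, 4.11, 4.18, 9.57 and 5.92 CPM in MG and 82.0, 47.7, 109, 49.9 and 86.0 CPM in tdT- sdCAMs (log2 fold change 3.24 ± 0.67, adjusted p = 0.000728). Ifitm3 measured 127, 94.0, 144, 174 and 96.2 CPM in MG and 979.6, 1450.2, 990.0, 820.0 and 1047 CPM in tdT- sdCAMs (log2 fold change 3.07 ± 0.26, adjusted p = 5.33e-09). In all of these the populations were clear of each other in every library.

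A second set of genes was called at smaller fold changes. Zbp1 measured 32.7, 14.7, 27.7, 38.5 and 33.0 CPM in MG BLZ945 and 84.5, 43.2, 61.6, 58.6 and 81.3 CPM in tdT- BLZ945 (log2 fold change 1.18 ± 0.29, adjusted p = 0.00356). Sp100 measured 142, 151, 108, 122 and 165 CPM in tdT- BLZ945 (log2 fold change 1.14 ± 0.23, adjusted p = 0.000726; its MG levels follow with the treatment). Rtp4, a chaperone of membrane receptors, measured 134, 79.7, 106, 165 and 149 CPM in MG and 282.009, 317, 261, 213 and 238.5 CPM in tdT- sdCAMs (log2 fold change 1.06 ± 0.22, adjusted p = 0.000833). Ifi204 measured 121, 61.1, 114, 161 and 118 CPM in MG and 285.5, 163, 284, 188 and 244 CPM in tdT- sdCAMs (log2 fold change 1.03 ± 0.23, adjusted p = 0.00138). Each of the 4 was without overlap between the populations. Ifi207, Bst2, Ddx60, Oasl2 and Oas1a were called, with log2 fold changes of 2.11, 1.47, 1.31, 1.32 and 0.90. The calls of Dhx58 and Trim30a were lost with the animal as a block (adjusted p = 0.0543 and 0.0596).

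By contrast, the regulators, the ISG15 system and the IFIT proteins held no gene that was called higher. Irf7 measured 52.8, 23.6, 65.5, 129.7 and 72.1 CPM in MG BLZ945 and 113, 101, 95.4, 148 and 89.96 CPM in tdT- BLZ945 (log2 fold change 0.68 ± 0.33, adjusted p = 0.121). Isg15 measured 48.3, 28.6, 48.9, 70.9 and 48.5 CPM in MG and 63.7, 43.2, 48.5, 29.7 and 43.4 CPM in tdT- sdCAMs, with the groups mixed (log2 fold change -0.09 ± 0.26, adjusted p = 0.819). Ifit2 measured 107, 27.0, 86.7, 145 and 97.4 CPM in MG and 49.8, 23.6, 74.0, 44.2 and 19.8 CPM in tdT- sdCAMs (log2 fold change -1.12 ± 0.42, adjusted p = 0.0469). Its lower level was a narrow call, lost with the animal as a block (adjusted p = 0.0535), and MG F2 was at the level of the sdCAMs.

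**Figure D4:**
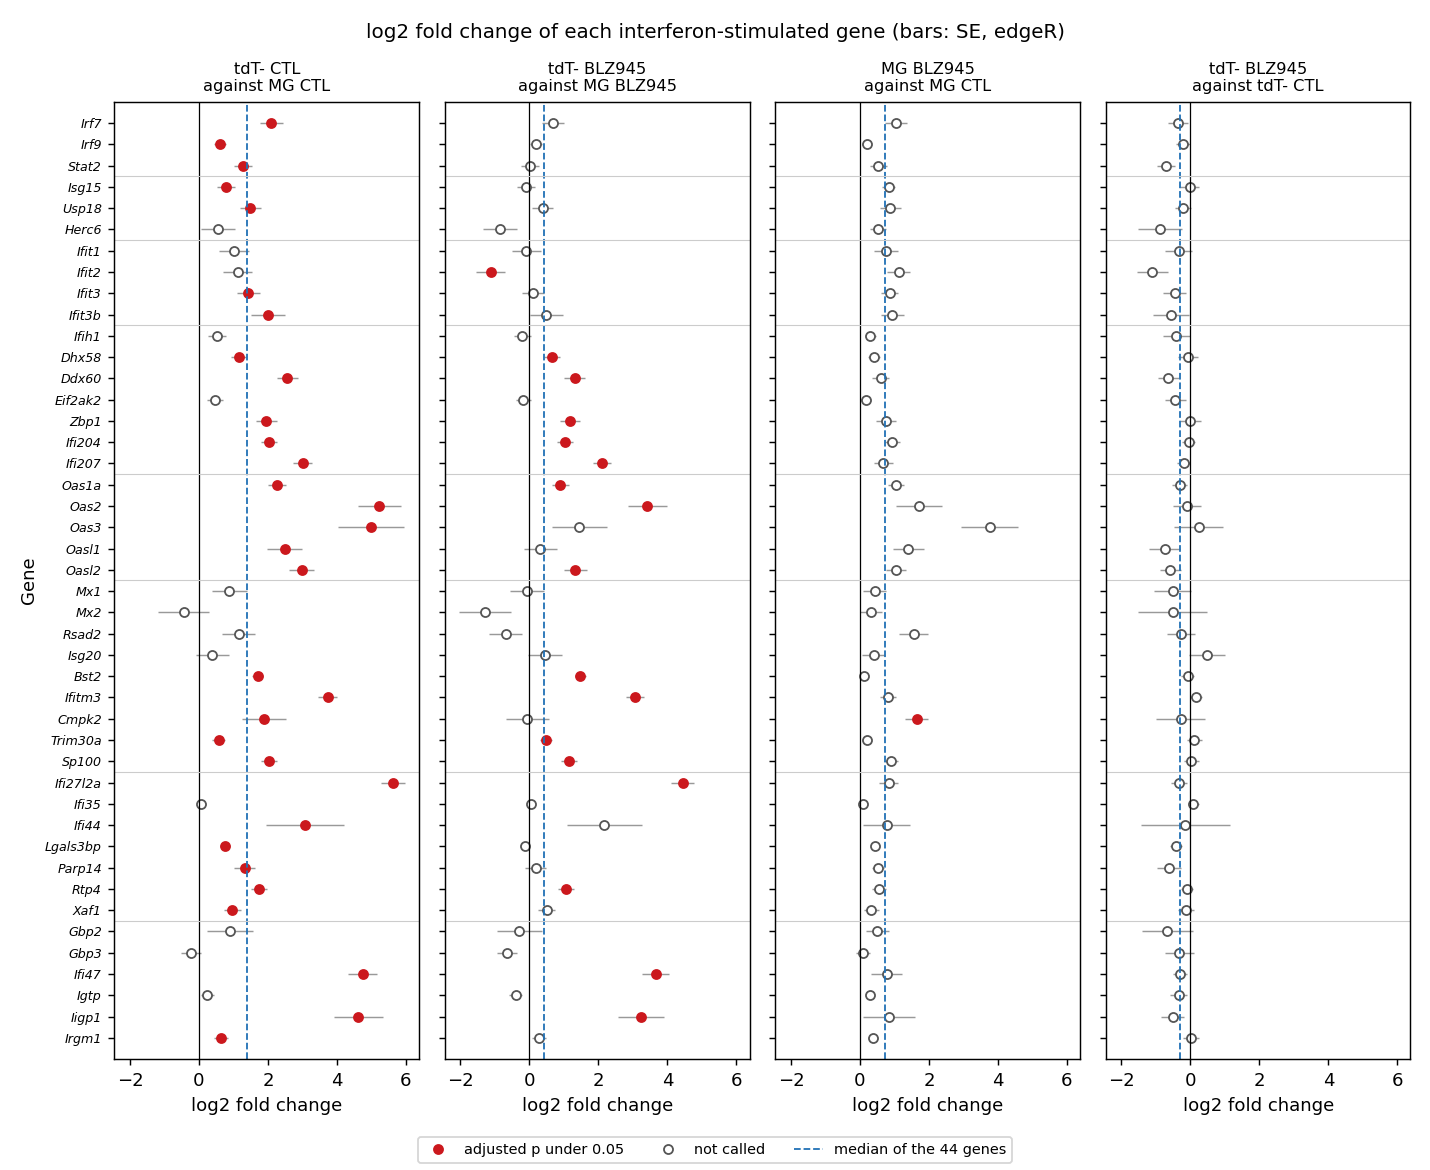
log2 fold change (x axis, point, with its SE as a bar) of each of the 44 genes (y axis, grouped by role) in 4 comparisons, filled where the adjusted p was below 0.05, with the median of the 44 genes as a dashed line at 1.38, 0.42, 0.72 and -0.30 from left to right. In the third panel all 44 points lie above 0 and only Cmpk2 is filled.

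MG of BLZ945 animals were compared with MG of CTL animals to ask whether cells present after depletion and repopulation differed after stroke. All 44 genes had a log2 fold change above 0 (50% of all 11264 genes), with a median of 0.72 (all genes, 0.00). For 29 of the 44 the unadjusted p was below 0.05 (13.2% of all genes). After adjustment over all genes, 1 gene was called, higher, against 0.408% of all genes (0.249% higher and 0.16% lower). The members share regulators, so these counts are not 44 separate observations. F2 was at the CTL level, and pooling goes with treatment, so that their parts in the difference cannot be told apart. The B cell list (4 genes, chiefly Ighm) summed to 257.3 to 468 CPM in MG CTL and 181 to 291 CPM in MG BLZ945, and the endothelial list (4 genes) to 29.8 to 39.2 and 15.4 to 34.7 CPM. Their part in the difference was not tested. The comparison shares the MG CTL libraries with the contrast of tdT- sdCAMs and MG in CTL animals.

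The gene that passed was Cmpk2, at 6.70, 9.02, 12.9, 8.28 and 7.201 CPM in MG CTL and 27.1, 8.38, 29.6, 42.8 and 30.5 CPM in MG BLZ945 (log2 fold change 1.64 ± 0.32, adjusted p = 0.0415). The BLZ945 libraries were all above the CTL range except F2, and the call held in 3 of the 10 fits that left out 1 library. Oas3 (log2 fold change 3.76 ± 0.82, adjusted p = 0.0593) and Sp100 (log2 fold change 0.90 ± 0.21, adjusted p = 0.0755) were the only members whose groups did not overlap (1.67% of all genes were separated in this direction). Oas3 measured 3.51, 1.17, 2.39, 7.71 and 1.27 CPM in MG BLZ945, and Sp100 23.9, 40.2, 38.1, 45.6 and 19.5 CPM in CTL and 64.9, 46.5, 54.7, 75.2 and 73.2 CPM in BLZ945. Ifi204 (log2 fold change 0.94 ± 0.21, adjusted p = 0.0593) and Oas1a (log2 fold change 1.05 ± 0.23, adjusted p = 0.0593) had the same adjusted p as Oas3. Isg15 had a log2 fold change of 0.84 ± 0.19 (adjusted p = 0.0725), Irf7 of 1.04 ± 0.31 (adjusted p = 0.163) and Ifit3 of 0.86 ± 0.25 (adjusted p = 0.152). In each of these, and in Oas3, Sp100, Ifi204 and Oas1a, M1 was the highest and F2 the lowest of the 5 BLZ945 libraries. Ifih1 (log2 fold change 0.31 ± 0.17, adjusted p = 0.48), Bst2 (log2 fold change 0.13 ± 0.12, adjusted p = 0.68) and Gbp2 (log2 fold change 0.50 ± 0.33, adjusted p = 0.56) were further from the threshold.

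This count rested on single libraries. Without MG BLZ945 F2, 13 of the 44 genes were called higher, and without MG CTL F3, 2 were. Without F1, F3, M1 or M2 of BLZ945, or without F1, F2 or M1 of CTL, none was. In these 9 fits, 42 to 44 of the genes had a value above 0, with medians of 0.56 to 0.85. With DESeq2, 8 genes were called, and with no filter on low counts 15.

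In tdT- sdCAMs, BLZ945 against CTL gave no call among the 44 genes, and none among all 13076 genes (0%). The unadjusted p was below 0.05 for 3 of the 44 (5.33% of all genes), and DESeq2 called 0 of them. The median log2 fold change was -0.30 (all genes, 0.00), with 7 of 44 values above 0 (49.9% of all genes). Irf7 measured 223, 99.7, 87.6, 199 and 98.9 CPM in CTL and 113, 101, 95.4, 148 and 89.96 CPM in BLZ945 (log2 fold change -0.36 ± 0.28, adjusted p = 0.998). The 2 CTL libraries with the highest levels, F1 and M1, were above all BLZ945 libraries, F2 and M2 were among them, and F3 was below them. Stat2 (log2 fold change -0.71 ± 0.26, adjusted p = 0.748) and Lgals3bp (log2 fold change -0.41 ± 0.17, adjusted p = 0.835) were lower in every BLZ945 library than in every CTL library, 2 of 44 genes, where 1.23% of all genes were separated in this direction. Ifitm3 had a log2 fold change of 0.16 ± 0.17 (adjusted p = 1) and Bst2 of -0.08 ± 0.18 (adjusted p = 1). The tdT- BLZ945 libraries F1 and M1, in which monocyte markers were highest, had mean levels of 6.07 and 5.65, on either side of the group mean. The dendritic cell list was lower in tdT- BLZ945 (31.4 to 164 CPM) than in tdT- CTL (219 to 780 CPM). The list of plasmacytoid dendritic cells was lower as well (0 to 17.7 and 18.96 to 81.0 CPM). In each tdT- CTL library 1 to 3 of its 5 genes were at 0, and its member Runx2 is not specific to these cells. CD11c+ cells had been gated out of the sort, and the part of these lists in the values was not tested.

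The difference of the BLZ945 effect between the populations, tdT- sdCAMs minus MG, was below 0 for 43 of 44 genes (above 0 for 47.8% of all genes), with a median of -0.98 on the log2 scale (all genes, -0.03). None of the 44 was called, against 0.0394% of all genes, and the lowest adjusted p was 0.127, for Lgals3bp. The unadjusted p was below 0.05 for 24 of the 44 (8.69% of all genes). Lgals3bp had a difference of -0.87 ± 0.21 and measured 281 ± 61.1 and 387 ± 44.2 CPM in MG of CTL and BLZ945 animals and 471 ± 63.4 and 353 ± 50.2 CPM in tdT- sdCAMs. Oas1a had a difference of -1.37 ± 0.35 (adjusted p = 0.176), Ifit2 of -2.24 ± 0.60 (adjusted p = 0.214) and Irf7 of -1.42 ± 0.47 (adjusted p = 0.349). With DESeq2, Lgals3bp, Oas1a and Ifit2 were called lower. This test uses the libraries of both contrasts described above and is not separate evidence from them.

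The tdT+ sdCAMs, which expressed Ccr2 at tamoxifen or descend from cells that did, were compared with the 5 tdT- BLZ945 libraries, of which F2, F3 and M2 came from the same animals. No member was called, against 0.206% of all 13076 genes (0.0153% higher and 0.191% lower). The unadjusted p was below 0.05 for 1 of the 44 (6.91% of all genes), and DESeq2 called 0. The median log2 fold change was -0.07 (all genes, -0.02), and 18 values were above 0 (48.1% of all genes). With 3 tdT+ libraries the SE of single genes was 0.18 to 1.46, so small differences were not detectable. The summed sdCAM markers were lower in tdT+ (13059 to 15268 CPM) than in tdT- BLZ945 (15651 to 18829 CPM), without overlap. The part of this list in the values was not tested. Isg15 measured 35.8, 38.4 and 41.1 CPM in tdT+ F2, F3 and M2, inside the tdT- range of 29.7 to 63.7 CPM (log2 fold change -0.26 ± 0.32, adjusted p = 0.982). Ifi27l2a at 923, 843 and 772 CPM (log2 fold change -0.27 ± 0.27, adjusted p = 0.969) and Ifitm3 at 1237, 844 and 1014 CPM (log2 fold change -0.05 ± 0.20, adjusted p = 1) were likewise inside the tdT- range. Oas1a measured 80.8, 82.6 and 98.9 CPM, with M2 above the tdT- maximum of 86.3 CPM (log2 fold change 0.26 ± 0.25, adjusted p = 0.962). Ifit2 was the gene with an unadjusted p below 0.05, at 8.90, 9.398 and 29.8 CPM in tdT+ and 49.8, 23.6, 74.0, 44.2 and 19.8 CPM in tdT- cells (log2 fold change -1.41 ± 0.54, adjusted p = 0.617).

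Against tdT- sdCAMs of CTL animals, tdT+ sdCAMs again gave no call among the 44 genes (0.283% of all genes, 0.0688% higher and 0.214% lower). The unadjusted p was below 0.05 for 5 (7.44% of all genes), the median was -0.41 (all genes, -0.03), and 9 values were above 0 (48.1% of all genes). Ifit2 had the lowest adjusted p (log2 fold change -2.51 ± 0.57, adjusted p = 0.107). All 3 tdT+ libraries (8.90, 9.398 and 29.8 CPM) were below all 5 tdT- CTL libraries (134, 75.9, 49.3, 148 and 49.3 CPM), 1 of 44 genes separated in this direction against 4.96% of all genes. The summed lists of dendritic cells (34.8 to 88.2 CPM in tdT+, 219 to 780 CPM in tdT- CTL), plasmacytoid dendritic cells (4.41 to 10.6 and 18.96 to 81.0 CPM) and sdCAMs (13059 to 15268 and 16337 to 18870 CPM) were also lower without overlap, and their part in these values was not tested. DESeq2, the fits without the filter or with at least 10 counts in every library, and the model of all 23 libraries called it lower. The tdT- CTL libraries also enter the comparison of BLZ945 and CTL in tdT- sdCAMs.

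Against MG of BLZ945 animals, 14 of the 44 genes were higher in tdT+ sdCAMs and 2 were lower, where 14.6% of 13790 genes were called higher, 10.6% lower and 25.2% in either direction. The median log2 fold change was 0.26 (all genes, -0.01), 27 values were above 0 (49.2% of all genes), and 17 had an unadjusted p below 0.05 (36.8% of all genes). The same 5 lists were without overlap here too, with 34.8 to 88.2 CPM for dendritic cells and 36.6 to 57.7 CPM for neutrophils in tdT+ sdCAMs. The oligodendrocyte list was also without overlap (21.8 to 61.6 CPM in MG BLZ945, 71.2 to 245 CPM in tdT+ sdCAMs). The part of these lists was not tested. Ifi27l2a (log2 fold change 4.19 ± 0.33, adjusted p = 8.2e-10), Oas2 (log2 fold change 3.75 ± 0.59, adjusted p = 3.79e-05), Ifi47 (log2 fold change 3.73 ± 0.40, adjusted p = 1.2e-07) and Ifitm3 (log2 fold change 3.02 ± 0.27, adjusted p = 5.49e-09) were among the genes called higher. Oas2 measured 93.4, 42.3 and 41.3 CPM and Ifi47 136, 103 and 127 CPM in tdT+ F2, F3 and M2, far above any MG library. Oas1a (log2 fold change 1.16 ± 0.26, adjusted p = 0.00209) was higher as well. Ifi204 measured 234, 256.999 and 230.5 CPM in tdT+ sdCAMs (log2 fold change 1.06 ± 0.24, adjusted p = 0.00216). Ddx60 measured 23.1, 15.2, 20.98, 24.6 and 18.4 CPM in MG and 52.3, 25.7 and 50.5 CPM in tdT+ sdCAMs (log2 fold change 1.07 ± 0.33, adjusted p = 0.0214). Its call was lost in 3 of the 8 fits that left out 1 library (adjusted p up to 0.106). The lower genes were Ifit2 (log2 fold change -2.53 ± 0.57, adjusted p = 0.00189) and Mx2 (log2 fold change -2.84 ± 0.99, adjusted p = 0.038). Mx2 measured 10.2, 9.05, 6.23, 16.3 and 12.2 CPM in MG and 1.72, 2.08 and 0.702 CPM in tdT+ sdCAMs, and its adjusted p was 0.0623 with the animal as a block, while Ifi44 (log2 fold change 3.80 ± 1.36, adjusted p = 0.042) was lost under it as well (0.142). Of the 16 genes called higher in tdT- sdCAMs in both treatments, 13 were called higher here, and the MG BLZ945 libraries are shared with the tdT- contrast.

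**Figure D5:**
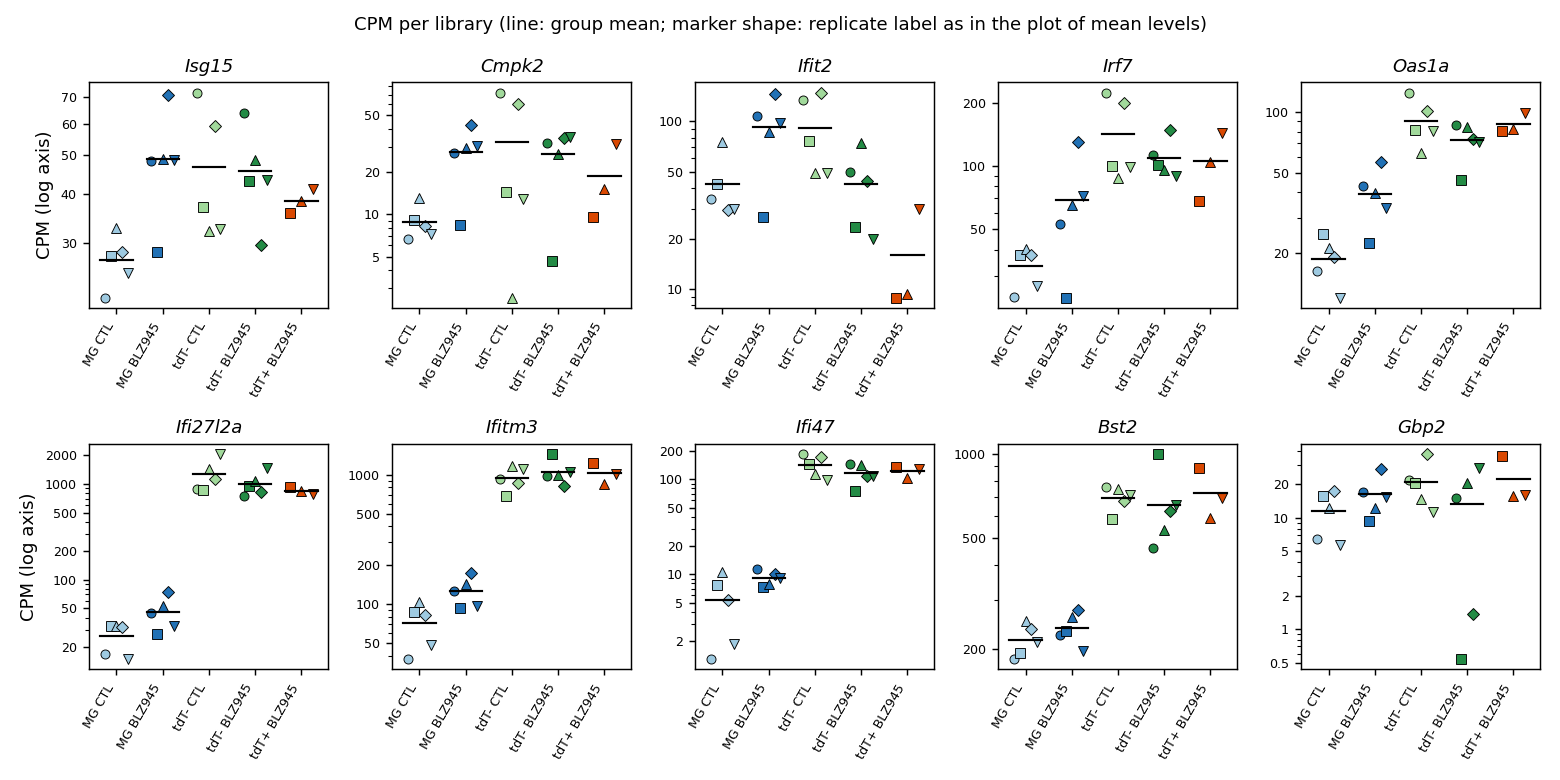
CPM per library (y axis, logarithmic) of 10 interferon-stimulated genes in the 5 groups (x axis), with the group mean as a line and marker shapes by replicate label. Ifi27l2a, Ifitm3, Ifi47 and Bst2 show no overlap between MG and sdCAM groups, whereas Isg15, Cmpk2, Ifit2 and Gbp2 do.

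Ifi44, Cmpk2 and Gbp2 had the widest range within a group. Ifi44 measured 10.9, 13.7, 13.2, 19.6 and 0.243 CPM in tdT- CTL and 20.2, 18.5, 13.6, 0.194 and 0 CPM in tdT- BLZ945, and 0, 78.9 and 19.96 CPM in tdT+ F2, F3 and M2, from no count to the highest level of any library. Cmpk2 measured 72.4, 14.3, 2.57, 60.4 and 12.7 CPM in tdT- CTL and 31.6, 4.65, 26.5, 34.5 and 34.8 CPM in tdT- BLZ945. Gbp2, a guanylate-binding protein, measured 21.7, 20.7, 14.8, 37.5 and 11.2 CPM in tdT- CTL and 15.2, 0.541, 20.8, 1.36 and 28.3 CPM in tdT- BLZ945. F2 and M1 were the low libraries in Gbp2, F2 alone in Cmpk2, and M1 and M2 in Ifi44. In MG CTL the ranges were narrower, at 6.70 to 12.9 CPM for Cmpk2, 5.67 to 17.3 CPM for Gbp2 and 0.306 to 2.54 CPM for Ifi44.

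Other genes of the interferon pathway were counted in the same comparisons. Of 31 pathway genes tested (ligands, receptors, kinases, sensors, feedback inhibitors and secreted targets, without Rigi), 3 were higher and 11 lower in tdT- than in MG of CTL animals, where 15.3% and 10.3% of all genes were. In BLZ945 animals, 2 were higher and 14 lower, against 18.3% and 14.1% of all genes. The median in CTL animals was -0.17 (all genes, -0.01). Ifnb1, the gene of interferon beta, measured 0.643, 1.40, 2.14, 2.48 and 3.29 CPM in MG CTL (7 to 43 counts) and 3.61, 0.754, 1.02, 2.22 and 1.27 CPM in MG BLZ945, and had no count in any of the 10 tdT- libraries. The MG mean was 8.08-fold the level of 3 counts in the tdT- libraries in CTL and 6.11-fold in BLZ945 animals. That level was taken without TMM factors. The factors of the tdT- libraries were at most 0.9995, so both ratios would be slightly lower with them. The adjusted p of Ifnb1 was 0.000206 in CTL and 0.000302 in BLZ945 animals. In tdT+ sdCAMs, F3 measured 3.17 CPM and the others 0.

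The receptor genes were split. Ifnar1 (log2 fold change 0.85 ± 0.27, adjusted p = 0.0251) and Ifnar2 (log2 fold change 0.40 ± 0.14, adjusted p = 0.0414), for type I interferon, were higher in tdT- than in MG of CTL animals, and Ifngr1 (log2 fold change -0.54 ± 0.11, adjusted p = 0.000492) and Ifngr2 (log2 fold change -0.70 ± 0.14, adjusted p = 0.000589), for interferon gamma, were lower. In BLZ945 animals Ifngr1 (log2 fold change -0.49 ± 0.11, adjusted p = 0.00128) and Ifngr2 (log2 fold change -0.70 ± 0.14, adjusted p = 0.000543) were lower as well, and Ifnar1 (log2 fold change 0.26 ± 0.27, adjusted p = 0.497) and Ifnar2 (log2 fold change 0.10 ± 0.14, adjusted p = 0.617) were not called, with Ifnar1 lower in tdT- sdCAMs than in MG of F2 and F3. The transcription factors Irf5 (log2 fold change -0.74 ± 0.14, adjusted p = 0.000237) and Irf8 (log2 fold change -0.86 ± 0.11, adjusted p = 3.23e-06), the DNA sensor Cgas (log2 fold change -1.81 ± 0.33, adjusted p = 0.00024), its adaptor Sting1 (log2 fold change -1.42 ± 0.14, adjusted p = 4.3e-08) and the RNA receptor Tlr3 (log2 fold change -2.92 ± 0.47, adjusted p = 5.59e-05) were lower in tdT- sdCAMs. Irf8 is a factor of microglial identity, and all 5 MG CTL libraries (667 to 894 CPM) were above all tdT- libraries (357 to 502 CPM). Rigi, the sensor whose older symbol had no row, was not counted among the 31 and was higher in tdT- sdCAMs of CTL animals (log2 fold change 1.00 ± 0.35, adjusted p = 0.0384).

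Of the secreted targets, Cxcl10, a chemokine that attracts T cells, was lower in tdT- sdCAMs. It measured 77.1, 68.3, 366, 164 and 180.2 CPM in MG CTL and 18.4, 16.8, 19.1, 24.5 and 22.2 CPM in tdT- CTL (log2 fold change -3.07 ± 0.51, adjusted p = 7.36e-05). In BLZ945 animals it measured 236, 64.0, 233, 300.1 and 182 CPM in MG and 63.2, 40.4, 48.2, 6.22 and 29.8 CPM in tdT- sdCAMs (log2 fold change -2.42 ± 0.49, adjusted p = 0.000631). Cxcl9, a related chemokine, measured 0.184, 1.66, 0.428, 0 and 0.153 CPM in MG CTL and 13.5, 0.772, 5.04, 2.71 and 1.05 CPM in tdT- CTL and was not called (log2 fold change 3.23 ± 1.39, adjusted p = 0.0979). In BLZ945 animals it measured 1.10, 0.168, 1.45, 0.532 and 0 CPM in MG and 2.25, 0, 47.2, 26.6 and 0.111 CPM in tdT- sdCAMs and was higher in the latter (log2 fold change 4.55 ± 1.45, adjusted p = 0.0201). Only tdT- F3 and M1 were far above MG, F2 was below its MG library, and several values lay under the level of 3 counts. Ccl5 was lower in tdT- BLZ945 than in MG BLZ945 (log2 fold change -1.93 ± 0.62, adjusted p = 0.0211). The inhibitors Socs1 (log2 fold change -0.91 ± 0.31, adjusted p = 0.0348) and Socs3 (log2 fold change -1.27 ± 0.40, adjusted p = 0.022) were also lower in tdT- CTL, and Pias1 (log2 fold change 0.74 ± 0.12, adjusted p = 9.16e-05) was higher. For BLZ945 against CTL, no pathway gene was called in MG or in tdT- sdCAMs. In MG, 26 of 30 values were above 0 (50% of all genes) and 8 had an unadjusted p below 0.05 (13.2% of all genes). In tdT- sdCAMs, 17 of 30 were above 0 (49.9% of all genes) and 0 had an unadjusted p below 0.05 (5.33% of all genes).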

How the data were processed

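RNA was sequenced in 23 libraries of sorted mouse cells, and the authors deposited raw counts per gene for each of them. The submitters' processing notes name bcl2fastq 2.20, STAR 2.7.11a, featureCounts 2.0.6 and DESeq2 1.46.0. How reads that map to several genes were counted is not given in the sources used here. Every column belonged to a sample.

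Counts were analysed with edgeR 4.0.16 in R 4.3.3 (filterByExpr, TMM factors, quasi-likelihood test, two-sided, Benjamini-Hochberg adjustment over all genes tested, threshold 0.05). MG and tdT- libraries formed a model of 20 libraries that also gave the difference of the BLZ945 effects, MG alone a model of 10, sdCAMs a model of 13 and the tdT+ to MG contrast a model of all 23. Levels are CPM scaled by TMM factors, with a pseudocount of 1 on the log2 scale.

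The members, lists and tests were chosen with earlier results of these data known. Genes named with all their values were those called in a comparison (where more than 8 were called, the 4 highest and 4 lowest fold changes among those without overlap), 1 reference gene per role and the 3 with the widest range within a group; others are named as examples of their role, chosen after their values were seen. Libraries with the same label within a treatment came from the same animal or pool, per the library labels, and their deviations from the group means correlated weakly (mean r 0.0826 between tdT- CTL and MG CTL, 0.0564 between tdT- BLZ945 and MG BLZ945, 0.0550 between tdT+ and tdT- BLZ945 and 0.0888 between tdT+ and MG BLZ945). Alternatives were DESeq2 1.42.0, RLE factors, other filters, a model of all libraries, the block, and each library left out. The test was also run on simulated counts with known changes, and its outcome there is not given here. The values of a gene in the pathway list are not reported here. The floor of 3 counts covers counting error only.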

Additional observations from a re-analysis of the deposited data

Results flagged for a closer look

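Dixon's test was run 104 times in groups of 5 libraries, on each named gene and on the mean level. In 6 of these, the gap of 1 library to the nearest other exceeded the 95% critical value. Chance does so in about 1 in 20 groups, about the rate seen. Cmpk2 and Ifi44, with 3 of the 6, were named for their wide range within a group, so the rate does not apply to them. Of these, 4 were BLZ945 libraries F2, whose names hold 1 animal number. Cmpk2 measured 8.38 CPM in MG BLZ945 F2, where the other 4 libraries held 27.1 to 42.8 CPM, and 4.65 CPM in tdT- BLZ945 F2, where the others held 26.5 to 34.8 CPM. In tdT- BLZ945 F2, Stat2 measured 23.04 CPM (others 38.4 to 43.9 CPM) and Ifit3 70.9 CPM (others 85.9 to 89.1 CPM). The remaining ones were tdT- CTL M2, with Parp14 at 39.6 CPM (others 56.1 to 62.8 CPM) and Ifi44 at 0.243 CPM (others 10.9 to 19.6 CPM).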

How the results depend on the processing

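The count of members called between tdT- CTL and MG CTL was 26 to 34 when 1 library was left out, between tdT- BLZ945 and MG BLZ945 14 to 18, and between tdT+ BLZ945 and MG BLZ945 13 to 15. Of the calls, 26 of 31, 13 of 17 and 12 of 16 held under every alternative run. With the replicate block of the same animal or pool, the counts were 27, 14 and 14 in that order, and 0 for tdT+ against tdT- BLZ945 and for the difference of BLZ945 effects. The block removed Cmpk2, Ifi44, Irgm1 and Isg15 from the first, Dhx58, Ifit2 and Trim30a from the second and Ifi44 and Mx2 from the third, and changed no other call of a member. Without tdT- BLZ945 F1 and M1, an alternative chosen after seeing the data, 13 members were called between tdT- and MG BLZ945.

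For MG BLZ945 against MG CTL, where 1 member was called, DESeq2 gave 8, no filter on low counts 15, the model of all 23 libraries 0, a block by label, which joins different animals, 5, and leaving out BLZ945 pool M1 (chosen after seeing the data) 0. Leaving out 1 library gave 0 to 13. For tdT+ BLZ945 against tdT- CTL, where none was called, DESeq2, no filter, at least 10 counts in every library and the model of all 23 libraries each gave 1 (Ifit2, lower), and leaving out 1 library gave 0 to 1. For the difference of BLZ945 effects DESeq2 gave 3. The cause of these changes was not tested. The differences in mean level moved by less than the replicate SD under each alternative run, although tdT+ minus tdT- BLZ945 turned from -0.085 to 0.021 without tdT+ F2. No called value changed sign. Genes at a few counts per library, such as Oas3 in MG CTL, are limited by depth.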
